A study of Homo sapiens with 33 samples.

Results

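The structural noncoding RNAs RN7SK, RN7SL1, RN7SL2, RMRP, RPPH1 and TERC were examined in wild-type K562 cells, a human erythroleukemia line, through their entries in 1 table of gene levels. Members were taken as every entry whose gene symbol was one of these 6 names, whatever its level. The table held 58293 entries under 58204 gene identifiers, of which 9 entries belonged to the 6 members: RN7SL1, RMRP and RPPH1 were listed with 2 entries each, and RN7SK, RN7SL2 and TERC with 1 entry each. The RNA came from the input of an RNA immunoprecipitation for EZH2, the enzymatic subunit of the chromatin repressor PRC2. The cells were fixed with formaldehyde, nuclei were sonicated in the immunoprecipitation protocol, no antibody was used on the input, and a stranded ScriptSeq library was made. Removal of ribosomal RNA is described for the immunoprecipitated RNA and not for the input. The series holds 33 samples, and only this library and the read counts of 4 fractions of wild-type K562 RNA (cytoplasmic, nuclear, nuclear polyA+ and nuclear polyA-, 1 library each) were used here. The immunoprecipitation used nuclear lysates, whereas the label of the input names total RNA, so the input may be nuclear RNA. With 1 library of input RNA there was no replicate, so no difference could be tested and no p-value is given. Levels are FPKM, fragments per kilobase of transcript scaled to the mapped fragments of the library. At 329, 305 and 273 bp, the smallest nonzero values of RN7SK copies elsewhere in the genome were 0.313, 0.358 and 0.4415 FPKM. If these rest on equal fragment counts, FPKM rose more steeply with falling length than plain length gives. The FPKM of RNAs of 264 to 333 bases may thus be raised relative to longer mRNAs. The selection of libraries of 250 to 500 bp can also treat these RNAs and longer mRNAs differently. Neither effect was tested. The bounds printed in parentheses are the confidence bounds deposited with each FPKM, which cover the error of the estimate and not the spread between cultures. The sequencing depth behind them is unknown, since the table holds no read counts.

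Each of these RNAs works as part of a ribonucleoprotein and is not translated. 7SK RNA, from RN7SK, holds the elongation kinase P-TEFb in an inactive complex with HEXIM proteins. 7SL RNA, from RN7SL1 and RN7SL2, is the RNA of the signal recognition particle, which directs secretory and membrane proteins to the endoplasmic reticulum, and it is also the ancestor of the Alu repeats. RMRP and RPPH1 are the RNAs of the related endonucleases RNase MRP and RNase P, which process ribosomal RNA and transfer RNA precursors. TERC carries the template that telomerase copies into telomeric DNA. RNA polymerase III makes 7SK, 7SL, RMRP and RPPH1, whereas RNA polymerase II makes TERC.

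The sequences of RN7SK and TERC are shown in part, the first for the stretch it shares with a copy elsewhere and the second for its template. Both are read from GRCh38 in the 5′ to 3′ direction of the RNA, with U written as T, and positions are counted from 1 at the 5′ end.
RN7SK is shown over bases 1 to 300 of its 328 (chr6:52995621-52995920, plus strand), with capitals on the 145 bases, positions 87 to 231, that recur without a mismatch in the copy RN7SKP71 on chromosome 12.
RN7SK: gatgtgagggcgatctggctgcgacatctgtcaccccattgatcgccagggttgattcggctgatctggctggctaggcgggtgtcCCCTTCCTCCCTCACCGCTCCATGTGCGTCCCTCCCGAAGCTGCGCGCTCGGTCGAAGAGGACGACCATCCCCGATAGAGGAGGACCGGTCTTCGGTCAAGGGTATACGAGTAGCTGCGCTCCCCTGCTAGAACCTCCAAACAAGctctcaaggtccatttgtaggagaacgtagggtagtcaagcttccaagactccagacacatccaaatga
TERC is shown over its first 120 bases (chr3:169764941-169765060, minus strand), with the 11 bases of the telomere template, positions 46 to 56, in capitals.
TERC: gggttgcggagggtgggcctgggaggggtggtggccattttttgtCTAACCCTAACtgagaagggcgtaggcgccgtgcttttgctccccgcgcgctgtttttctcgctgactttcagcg

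RN7SK was the member with the highest level. Its entry (ENSG00000283293.1, chr6:52995621-52995948, 328 bp, GRCh38) stood at 1416 FPKM (1339.7 to 1493), which was rank 4 of all 58293 entries. The entries above it were the small nucleolar RNAs SNORD24 and SNORD99 and the nuclear long noncoding RNA MALAT1, and the bounds of RN7SK overlapped those of 5 other entries. MALAT1, at 1433 FPKM (1387 to 1478), could not be told apart from RN7SK by its bounds. The same bases were listed a second time under the symbol 7SK (ENSG00000202198.1, chr6:52995620-52995950, 331 bp), an entry that contains RN7SK whole and stood at 704 FPKM (655 to 752), rank 9. The sum of both entries was 2119.8 FPKM, of which RN7SK held 66.8%. The sources used here do not say whether a read over such overlapping entries was divided between them or counted in each. Counting each read in full in both would give entries over nearly the same bases like values. RN7SK and 7SK stood at 1416 and 704 FPKM, and the RN7SL1 entries described below at 495 and 0.00273 FPKM. How reads were assigned was not tested. This sum and those given for RMRP, RPPH1 and TERC may still count some reads more than once.

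The 7SL genes came next. RN7SL1 was listed as an entry of 300 bp (ENSG00000283029.1, chr14:49586579-49586878) at 495 FPKM (461 to 529), rank 21. A second RN7SL1 entry (ENSG00000276168.1, chr14:49586580-49586878), which is 1 base shorter and lies inside the first, stood at 0.00273 FPKM (0 to 0.745), rank 33107. GENCODE 44 gives the name RN7SL1 to the second identifier, the one whose lower bound was 0. RN7SL2 (ENSG00000274012.1, 300 bp) had a single entry at 386 FPKM (362 to 410), rank 35, and the bounds of RN7SL1 and RN7SL2 did not overlap. The RNAs have an identity of 98.3%, and reads that cover no difference between them fit both genes equally. The authors removed alignments of mapping quality under 20, which takes such reads away. Both levels may therefore be incomplete, and the division between RN7SL1 and RN7SL2 is uncertain. Their sum was 880 FPKM.

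Of the RNAs of RNase MRP and RNase P, RMRP was the higher. RMRP was listed at 494 FPKM (456 to 532), rank 22, for its entry of 268 bp (ENSG00000269900.3, chr9:35657751-35658018) and at 80.6 FPKM (63.1 to 98.2), rank 367, for an entry of 264 bp that lies inside it (ENSG00000277027.1, chr9:35657754-35658017). The sum was 574.5 FPKM, of which the longer entry held 86.0%. RPPH1 was listed at 132 FPKM (117 to 148), rank 183, for the entry of 333 bp (ENSG00000277209.1, chr14:20343075-20343407). An entry of 638 bp that contains it (ENSG00000259001.3, chr14:20343048-20343685) stood at 83.2 FPKM (75.5 to 90.9), rank 347. GENCODE 44 keeps the longer one as a long noncoding RNA with no symbol, and 104 of its bases also lie in the span of PARP2, a DNA repair gene on the other strand at 9.55 FPKM. The sum for RPPH1 was 215.5 FPKM, with 61.4% in the shorter entry.

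TERC was the exception among the members. Its entry of 541 bp (ENSG00000270141.3, chr3:169764520-169765060) stood at 1.06 FPKM (0 to 2.13), rank 12478, and its lower bound reached 0. Its bounds overlapped those of 50135 entries, so its place in the order of the table is not resolved. An entry under the symbol Telomerase-vert (ENSG00000277925.1, chr3:169764610-169765047, 438 bp), which lies inside the TERC entry, stood at 14.3 FPKM (10.7 to 17.9), rank 3120. The bounds of these overlapping entries did not meet, and 93.1% of their sum of 15.4 FPKM lay under the name that is not TERC.

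Of the 9 member entries, 8 stood at 1 FPKM or more, beside 21.8% of the entries of the whole table. A lower bound above 0 was found for 7 of the 9, beside 26.5% of the whole table. Counted by gene, all 6 members had an entry at 1 FPKM or more and 5 had one with a lower bound above 0, TERC being the exception. The members were chosen by name with earlier results of these data known, so these counts are a description. The 9 entries held 1.49% of the FPKM summed over the table, 3088 of 206977.

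Ordered by FPKM, RN7SK exceeded RN7SL1 by 2.86 times, and their bounds did not overlap. RN7SL1 and RMRP were at a ratio of 1.002 with overlapping bounds, so these entries cannot be placed one above the other. RMRP exceeded RN7SL2 by 1.28 times and RN7SL2 exceeded RPPH1 by 2.91 times, in each case with separate bounds. The bounds do not cover 7SL reads that fit several places and may have been removed. The place of RN7SL1 and RN7SL2 beside RMRP is therefore uncertain. Summed, RN7SL1 and RN7SL2 stood at 880 FPKM, above the sum of 574.5 FPKM for RMRP. The lower RMRP entry and the longer RPPH1 entry were at a ratio of 1.03 with overlapping bounds. The lower RMRP entry stood 75.9 times above TERC, the widest gap between neighbours in this order whose bounds did not overlap. This order depends on the use of single entries. With the entries of each locus summed, RN7SK stood 3.69 times above RMRP, RMRP 1.16 times above RN7SL1, RN7SL1 1.28 times above RN7SL2, RN7SL2 1.79 times above RPPH1, and RPPH1 14.0 times above TERC, and the sums have no bounds. The bounds of single entries were narrow for RN7SK, RN7SL1, RN7SL2 and the higher RMRP entry, from 5.41% to 7.76% of the value on either side, and were 101% of the value for TERC.

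**Figure D1:**
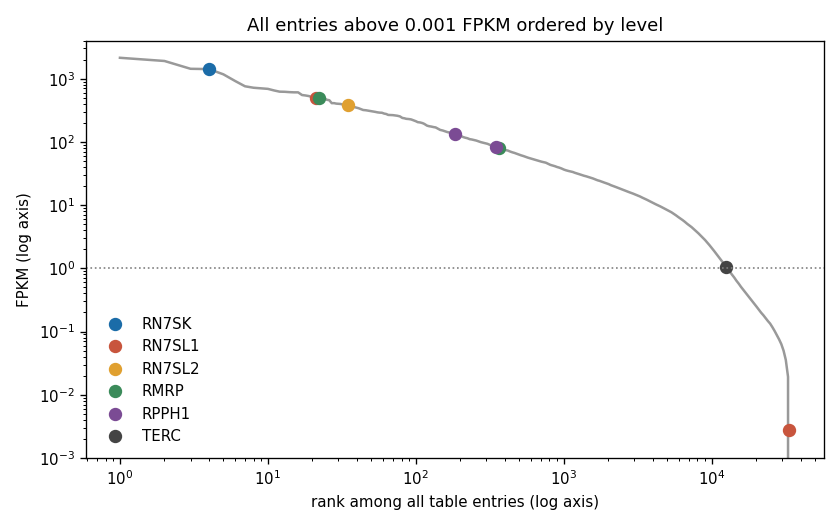
FPKM of all table entries against their rank, both on log axes (grey line), with the member entries as coloured points and a dotted line at 1 FPKM. The entries of RN7SK, RN7SL1, RN7SL2, RMRP and RPPH1 lie between ranks 4 and 367 except for the RN7SL1 entry at rank 33107, and TERC lies at rank 12478.

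The genes closest to each member in this order were of varied kinds. Directly around RN7SL1 and RMRP stood RNU4-1, a spliceosomal RNA at 505 FPKM (432 to 578), and the mitochondrial genes MT-ND3 at 529 FPKM (505 to 554) and MT-CO1 at 494 FPKM (484 to 503). Around RN7SL2 stood the ribosomal protein gene RPS6 at 387 FPKM (370 to 405), the nucleolar chaperone gene NPM1 at 389 FPKM (370 to 408) and SNORA49, a small nucleolar RNA. RPPH1 lay between TMSB10 at 133 FPKM and DNMT1, the maintenance DNA methyltransferase, at 132 FPKM (122 to 142). These likenesses rest on 1 value per gene in 1 library. Very short entries crowd the top of the table, with 12 of the 20 highest under 200 bases. Among the 50891 entries of at least 200 bases, RN7SK ranked 2, RN7SL1 9, RMRP 10 and RN7SL2 19.

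The proteins that bind each RNA were compared with it on the same scale. RN7SK stood above all 12 genes of the 7SK particle and P-TEFb list, 92.0 times the list median of 15.4 FPKM. Of these 12 genes, 11 stood at 1 FPKM or more. The genes of the core proteins of the particle were at 32.2 FPKM for LARP7, which protects the RNA's 3′ end, and 8.05 FPKM for MEPCE, which caps its 5′ end. The inhibitor HEXIM1 stood at 4.39 FPKM and its paralog HEXIM2 at 0.536 FPKM, the only gene of the list under 1. The kinase CDK9 was at 9.02 FPKM and its cyclins CCNT1 and CCNT2 at 13.3 and 10.5 FPKM. The highest were HNRNPA1 at 296 FPKM and HNRNPA2B1 at 219 FPKM, general RNA-binding proteins that also associate with 7SK.

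RN7SL1 and RN7SL2 stood above all 8 genes of the signal recognition particle and its receptor, at 24.5 and 19.1 times the list median of 20.2 FPKM, and all 8 were at 1 FPKM or more. SRP14 and SRP9, which bind the Alu domain of 7SL together, were the highest at 97.0 and 57.5 FPKM. SRP72, SRP19, SRP68 and SRP54 were at 40.9, 23.7, 16.6 and 15.8 FPKM, SRP54 being the subunit that recognises the signal peptide. The receptor genes SRPRA and SRPRB were the lowest at 15.0 and 7.11 FPKM.

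RMRP and RPPH1 share most of their proteins. Both stood above all 11 genes of these proteins, at 72.2 and 19.3 times the list median of 6.84 FPKM. All 11 were at 1 FPKM or more, from 1.31 FPKM for RPP25 to 16.4 FPKM for POP4. POP1, the largest of these proteins, stood at 6.84 FPKM. For TERC the order was turned round. The TERC entry was at 0.101 of the median of the 7 telomerase genes, 10.5 FPKM, and 6 of the 7 stood at or above it. The exception was TERT, the reverse transcriptase, at 0.721 FPKM with a lower bound of 0. DKC1, NOP10, NHP2 and GAR1, genes of the box H/ACA proteins that TERC shares with many small nucleolar RNAs, were at 81.2, 33.7, 28.2 and 10.5 FPKM. When the Telomerase-vert entry was added to TERC, the locus stood at 1.47 times the list median and 3 of the 7 genes were at or above it.

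**Figure D2:**
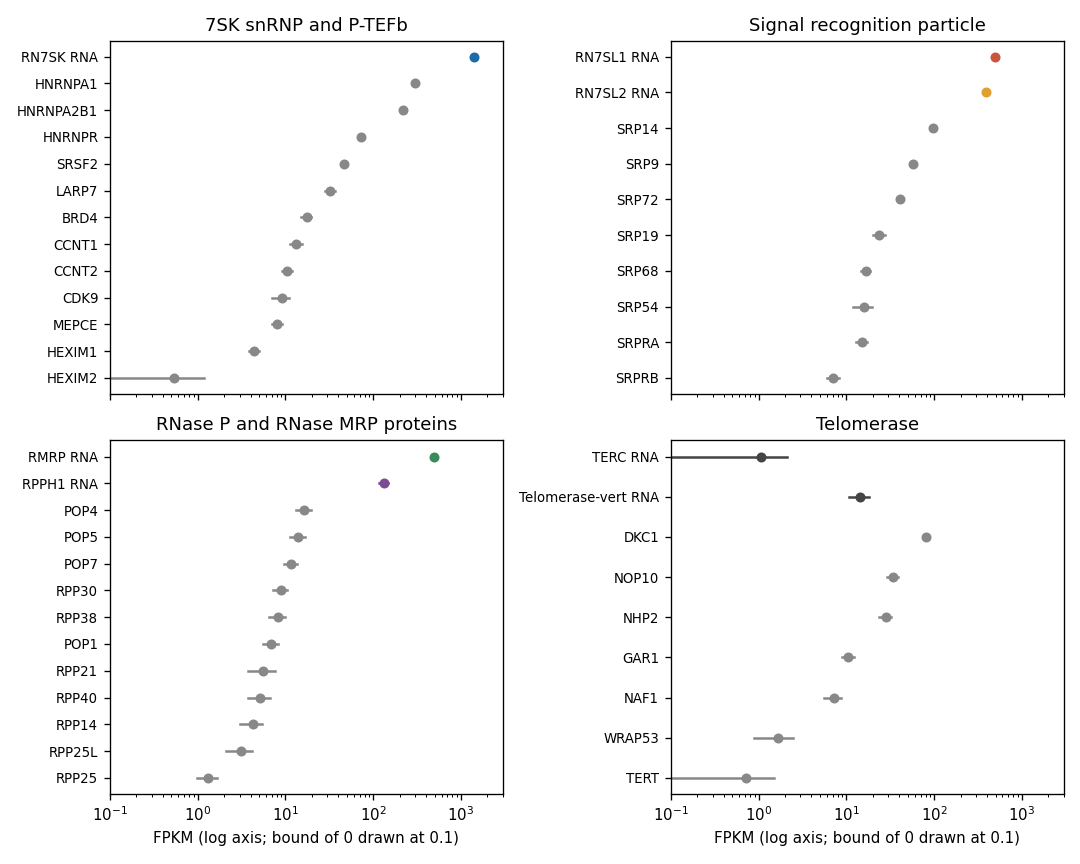
FPKM on log axes of each member's highest entry and, for TERC, the Telomerase-vert entry (coloured) above the genes of its protein list (grey), with bars for the deposited bounds. RN7SK, RN7SL1, RN7SL2, RMRP and RPPH1 lie to the right of every protein gene of their panel, and TERC lies to the left of 6 of 7.

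Genes of RNA polymerase III, the enzyme that makes every member but TERC, were counted next. All 18 subunits of RNA polymerase III were at 1 FPKM or more, with a median of 20.4 FPKM, the lowest being POLR3F at 3.39 FPKM, although the lower bound of POLR1D, at 17.1 FPKM, was 0. The 18 genes of the list of initiation factors, which holds the repressor MAF1 at 9.45 FPKM, were also all at 1 FPKM or more, with a median of 10.1 FPKM. They included BRF2, which acts at promoters of the 7SK and RMRP kind, at 2.44 FPKM, and SNAPC1 and SNAPC2 of the snRNA activating complex at 2.03 and 1.36 FPKM, SNAPC2 with a lower bound of 0. Of 8 genes that process or trim 3′ ends of such RNAs, 7 were found in the table and all 7 were at 1 FPKM or more. SSB, the La protein that binds the ends of new RNA polymerase III transcripts, was the highest at 149.8 FPKM, and PARN and TOE1, deadenylases that act on TERC among other RNAs, were at 16.6 and 5.08 FPKM.

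Other small RNAs of RNA polymerase III stood below 5 of the members. Of 16 such symbols 14 were found and 10 stood at 1 FPKM or more, with a median of 28.8 FPKM and with RNY1, a Ro-associated RNA, the highest at 64.8 FPKM. RN7SK, RN7SL1, RN7SL2, RMRP and RPPH1 were each above that value with their highest entry, although the bounds of RPPH1 overlapped those of RNY4, which reached from 0 to 119.6 FPKM. These other RNAs are mostly near 100 bases long, and the libraries were selected for sizes of 250 to 500 bp, so their levels and those of the longer members were not measured under equal conditions. VTRNA1-2, VTRNA1-3, RNU6-7 and RNU6-8 were listed at 0. Repeats of these RNAs elsewhere in the genome were not searched. The removal of alignments of mapping quality under 20 may thus also have lowered them, by an unknown amount. The part of the size selection or of this removal in the difference was not tested. Among 22 spliceosomal and related RNAs of RNA polymerase II, 17 were at 1 FPKM or more, with a median of 66.5 FPKM. RNU2-2P at 651 FPKM (593 to 710) stood above RN7SL1 and RMRP with separate bounds, and RNU11 at 623 FPKM (526 to 719.6) overlapped both. RNU1-1, RNU1-3, RNU1-4, RNU2-1 and RNU7-1 were listed at 0, and RNU1-2 was at 1.56 FPKM. Repeats of these RNAs were not searched either, so a listing at 0 does not show that an RNA was absent.

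More than 1 entry for a locus was not limited to the members. In the table, 384 pairs of entries shared at least 80% of both lengths, and in 119 of them the higher entry was at 1 FPKM or more. In 71 of these 119 the lower entry was under 0.1 of the higher, as for RN7SL1, and in the others it was not, as for RMRP and for RN7SK with 7SK. A symbol occurred more than once for 362 gene names. RNU11 showed the same pattern as RN7SL1, with 1 entry at 623 FPKM and another at 0.00612 FPKM.

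Copies of RN7SK and 7SL are scattered over the genome, and 293 RN7SK copies and 678 RN7SL copies had entries of their own. A further 170 entries named Metazoa_SRP (145 listed at 0, 5 at 1 FPKM or more) and 6 entries named 7SK away from RN7SK (5 listed at 0, 1 at 1 FPKM or more) were not placed in these families. Most copies were listed at 0. Of the RN7SK copies, 198 were listed at 0 and 31 were at 1 FPKM or more, and the highest were RN7SKP255 at 46.5 FPKM (38.5 to 54.4), RN7SKP203 at 7.40 FPKM and RN7SKP158 at 4.45 FPKM. All RN7SK copies summed to 148 FPKM, 9.47% of the FPKM of copies and RN7SK together. Of the RN7SL copies, 472 were listed at 0 and 73 were at 1 FPKM or more, led by RN7SL4P at 68.9 FPKM (58.5 to 79.3), RN7SL128P at 14.0 FPKM and RN7SL381P at 12.3 FPKM. The RN7SL copies summed to 323 FPKM, 26.9% of the FPKM of copies and the RN7SL1 and RN7SL2 entries together. RN7SL3, with an identity of 97.7% to RN7SL1 the closest copy of all, stood at only 12.2 FPKM (7.96 to 16.5). It was named after its value was seen. RMRP had 1 copy and RPPH1 had 2, with identities of at most 72.7%, and all 3 were listed at 0.

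Where a copy lay inside a gene went with its level. Of 59 RN7SK copies within the span of a protein-coding entry at 1 FPKM or more, 19 (32.2%, 95% Wilson interval 21.7 to 44.9) were themselves at 1 FPKM or more. The share was 3.23% (0.889 to 11.0) for 62 copies in coding entries under 1 FPKM and 5.81% (3.19 to 10.4) for 172 copies in no coding entry. For RN7SL the shares were 27.6% (22.0 to 33.9) of 214 copies, 3.33% (1.30 to 8.26) of 120 and 2.91% (1.59 to 5.27) of 344. The intervals treat copies as independent, cover counting error over copies only, and say nothing on replicates. RN7SL4P, RN7SL128P and RN7SL381P lie in ANKRD28, E2F3 and GSE1, which were at 27.6, 9.86 and 40.6 FPKM. RN7SKP255 lies in no protein-coding entry. The share at 1 FPKM or more also differed with identity to the closest member. For RN7SK it was 31.8% (16.4 to 52.7) of 22 copies at 80 to 90% identity. It was 9.32% (5.73 to 14.8) of 161 at 70 to 80% and 8.26% (4.405 to 14.95) of 109 under 70%. For RN7SL it was 13.1% (9.84 to 17.3) of 312, 11.8% (8.37 to 16.3) of 255 and 0.909% (0.161 to 4.97) of 110. Each family had 1 copy of at least 90% identity. The part of the surrounding transcripts or of likeness to the members in these values was not tested.

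**Figure D3:**
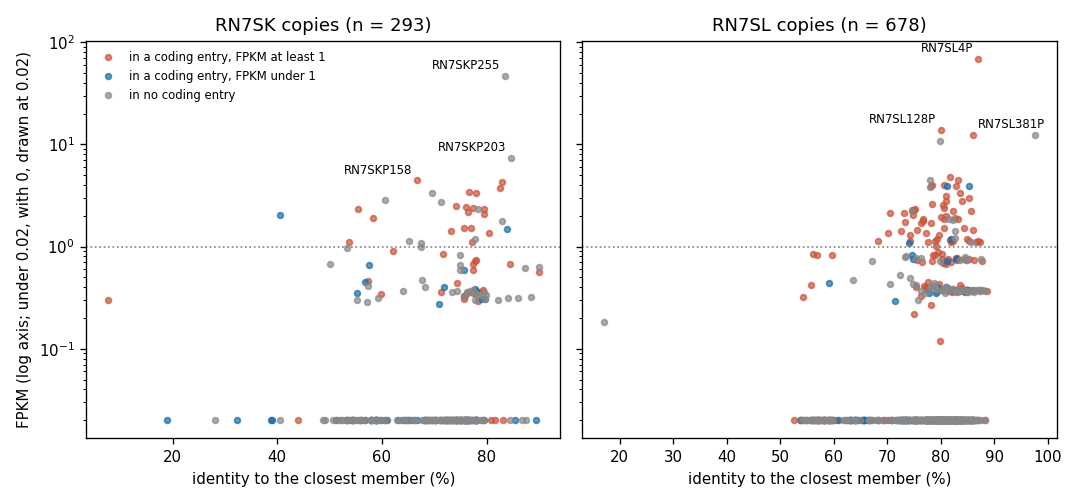
FPKM of 293 RN7SK copies (left) and 678 RN7SL copies (right) on a log axis against their identity to the closest member, with values under 0.02 drawn at 0.02. Red points lie in protein-coding entries at 1 FPKM or more, blue points in those under 1 FPKM and grey points in none, and above the dotted line at 1 FPKM red points are 19 of 31 on the left and 59 of 73 on the right.

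The extent of exact repetition separated the members into groups. Within the assembled chromosomes, RN7SL1 had 42542 and RN7SL2 35503 exact matches of at least 32 bases elsewhere, and RN7SK had 129. RMRP, RPPH1 and TERC had 0. Of all windows of 50 bases along the RNA, 84.4% in RN7SL1, 86.9% in RN7SL2 and 77.1% in RN7SK occurred elsewhere without a mismatch. At 150 bases, the read length, 66.0% of the windows of RN7SL1 and 65.6% of those of RN7SL2 were still repeated, and 0% of those of RN7SK. Per the methods reads were paired, so both mates of a fragment can together cover more bases than such a window. The share of read pairs that could not be placed was not measured. The longest match was 209 bases for RN7SL1, in RN7SL5P, and 205 bases between RN7SL1 and RN7SL2. RN7SL2 shared 192 bases with RN7SL4P, the RN7SL copy of highest FPKM. RN7SK shared 143 bases with RN7SKP203 and 103 bases with RN7SKP255. Alignments of mapping quality under 20 had been removed by the authors, which takes away reads that fit several places equally well. The FPKM of RN7SL1, RN7SL2 and, less so, RN7SK may therefore be incomplete by an amount that was not tested, whereas RMRP, RPPH1 and TERC hold no window of 50 bases for which this could occur through an exact copy.

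**Figure D4:**
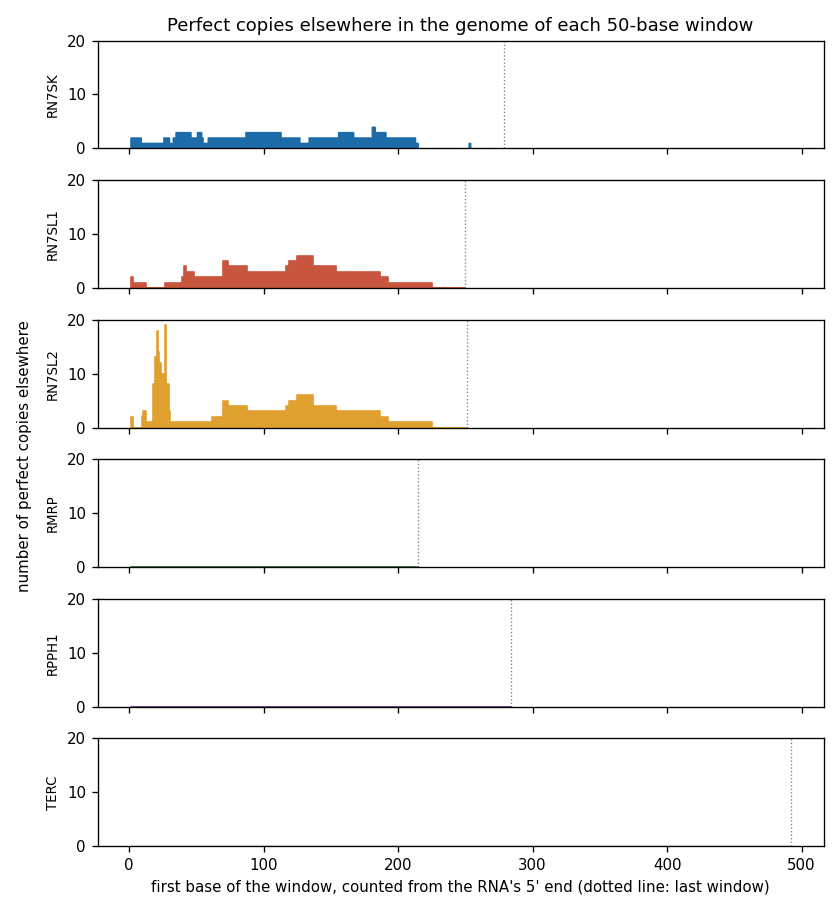
Number of perfect copies elsewhere in the genome of each 50-base window, against the first base of the window in each member, with a dotted line at the last window. Copies reach 4 for RN7SK, 6 for RN7SL1 and 19 for RN7SL2, near its 5′ end, and are 0 throughout RMRP, RPPH1 and TERC.

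The protein-coding genes beside the members were much lower than each member's highest entry, except at TERC, where the order with MECOM depends on the entry used. RN7SK lies 242 bp from GSTA4, a glutathione transferase gene at 0.276 FPKM (0 to 0.922), and RMRP lies 272 bp from CCDC107 at 0.625 FPKM (0.0613 to 1.19). RN7SL1 lies within the span of the ribosomal protein gene RPS29, on the opposite strand, which was at 55.4 FPKM (46.1 to 64.7). RN7SL2 lies within a long noncoding RNA entry, RP11-596C23.6, on the same strand, at 0.384 FPKM, with NEMF at 33.6 FPKM as the next coding gene. RPPH1 lies 174 bp from PARP2. TERC lies 1860 bp from ACTRT3 at 0.160 FPKM (0 to 0.321), and MECOM, on its other side at a distance of 100901 bp, was at 9.41 FPKM (7.38 to 11.4), above the TERC entry. Telomerase-vert, inside the TERC entry, was at 14.3 FPKM (10.7 to 17.9), above MECOM with overlapping bounds. The kit keeps the strand, but the sources used here do not give the strand setting of the FPKM calculation, so reads of overlapping entries on both strands may not have been separated.

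The members were also looked up among the EZH2 RIP-seq fragments. Of the 900 fragments in the tables used here, 0 overlapped an entry of any member. These 900 may be only part of the study's EZH2 fragments, so the absence of an overlap holds for these fragments and not for all RNA bound by EZH2. The nearest of the 900 was 281357 bp from RN7SK, 1550741 bp from TERC, 2163942 bp from RMRP, 12435631 bp from RN7SL1, 12711602 bp from RN7SL2 and 16551788 bp from RPPH1. None of the 900 overlapped any of the 117 genes found from the lists of protein partners, RNA polymerase III genes, 3′ end factors and small RNAs, under either overlap rule, which likewise says nothing of fragments not analysed here. By comparison, 2.54% of all entries at 1 FPKM or more were overlapped by a fragment. The entries overlapped were long, with a median of 143794 bp, against 6896 bp for the list genes, so length and membership cannot be told apart here. The fragment tables used here therefore give no count for RN7SK, RN7SL1, RN7SL2, RMRP, RPPH1 or TERC in cytoplasmic RNA, nuclear RNA, nuclear polyA+ RNA or nuclear polyA- RNA.

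The library carried the marks of its cell line. All 11 erythroid genes were at 1 FPKM or more, from HBA1 at 4.73 FPKM to HBG2 at 218 FPKM. Of 9 markers of other cell types 2 were at 1 FPKM or more, EPCAM at 27.9 FPKM and PECAM1 at 1.79 FPKM, and CD14 was listed at 0. Among RNAs that mark other compartments or depletion, the 4 nuclear retained long RNAs were all at 1 FPKM or more, and the mitochondrial ribosomal RNAs MT-RNR1 and MT-RNR2 were at 93.5 and 199 FPKM, both below RN7SK, RN7SL1, RN7SL2 and the higher RMRP entry.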

How the data were processed

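RNA-seq of the RIP-seq input of wild-type K562 cells (1 library) and of 4 RNA fractions (1 library each) was used. Per the methods, the authors used TrimGalore for adapters, STAR for alignment (GRCh38, GENCODE 26) and SAMtools rmdup for PCR duplicates, and kept alignments of mapping quality 20 or more. They computed gene levels with cuffdiff and deposited them as FPKM with bounds and, for each fraction, the read count on each EZH2 fragment, made with featureCounts and not normalized. Versions are not given in the sources used here. Removal of duplicates by position can lower the values of short, abundant RNAs, and its effect was not tested.

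Entries were matched by symbol. Lengths and coordinates are the entries' spans, 1-based. The table has no strand, so strand and gene type were taken from GENCODE 44 where an identifier matched. Exact matches of at least 32 bases, on both strands of the assembled GRCh38 chromosomes, were found by a search tested on simulated sequences. Percent identity was counted from the edit distance (edlib 1.3.9.post1). Analyses used Python 3.11.15, pandas 2.3.3, numpy 2.4.6 and scipy 1.17.1. Groups followed the sample labels. No test was made.

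The genes named were the members, list genes, the 3 entries above and below each member in FPKM, the nearest coding entries and the 3 highest copies of each family. RN7SL3, hosts of copies and copies holding the longest matches were named after their values were seen. Members and lists were chosen with earlier results of these data known. Promoters were not analysed here, and the 7SL sequences are not reported here. Alternatives changed the ranking, thresholds, pseudocounts, window lengths and the summing of entries.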

Additional observations from a re-analysis of the deposited data

How the results depend on the processing

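No paired analysis was possible because the values come from 1 library and from no test. The number of member entries at or above 1 FPKM (8) stayed within 1.5 times at thresholds of 0.1 and 10 and with 1 entry per symbol. The 7SL level was 495 FPKM for RN7SL1, 386 FPKM for RN7SL2 alone, 880 FPKM for both and 1203.5 FPKM with all RN7SL entries. Summing all entries of a locus, an alternative chosen after seeing the data, gave 2119.8 FPKM for RN7SK, 574.5 for RMRP, 215.5 for RPPH1 and 15.4 for TERC. With a lower bound of at least 1 in place of the level, the count of other RNA polymerase III small RNAs went from 10 to 6 and that of markers of other cell types from 2 to 1. With windows of 100 and 150 bases, the repeated share was 52.0% and 0% in RN7SK, 74.5% and 66.0% in RN7SL1, and 82.1% and 65.6% in RN7SL2. Depth is unknown, and no value has a replicate.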
